A study of Rattus norvegicus with 6 samples.

Results

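The genes described here are the mature adipocyte genes of the mammary fat pad, taken by symbol from the deposited count table. They were chosen with earlier results of these data known. Of 10 listed genes, 9 were found among the 30562 rows of the table: Adipoq, Plin1, Plin4, Fabp4, Lpl, Cidec, Pparg, Lep and Lipe. The expression of Cd36 was not analysed here. The samples were 6 mammary tumors of F344 rats, an inbred strain, each sequenced in bulk as a single library. Tumors 102, 107 and 116 grew in older rats, and tumors 157, 158 and 167 in younger rats. Older rats received the carcinogen at 21 to 23 months of age and younger rats at 4 months. All rats of both groups carried a subcutaneous 50 mg pellet of medroxyprogesterone acetate (MPA), a progestin released over 90 days, and received 1 oral dose of 65 mg per kg of 7,12-dimethylbenz[a]anthracene (DMBA) in sesame oil. No untreated mammary gland or fat was among the samples, and the sequenced older tumors were those with enough tissue. The labels do not say whether each tumor came from a different rat, but the study counts its sequenced tumors as 3 older and 3 younger rats. The tests measure the spread between these tumors.

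The rat mammary gland lies in a pad of white fat, and a tumor piece can hold adipocytes of that pad beside cancer cells, vessels, fibroblasts and leukocytes. White adipocytes store triglyceride in a lipid droplet coated by perilipins and CIDE proteins, release it by lipolysis, and secrete the hormones adiponectin and leptin. PPARG is the nuclear receptor that drives adipocyte differentiation and many genes of lipid storage. Several of these genes are not limited to fat: Lpl is also transcribed in muscle, macrophages and lactating mammary tissue, and Fabp4 in macrophages and capillary endothelium.

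Library totals ran from 3394451 to 6383983 counts over the rows that carry a gene name. Values are given as CPM, the counts relative to the library total after TMM scaling, so that 3 counts, taken as the floor, equal 0.528 to 1.03 CPM depending on the tumor. Intervals for single tumors are exact 95% Poisson intervals of the count and cover counting error only. Counts depend on gene length, so levels are compared between tumors for the same gene and not between genes. Tumors 158 and 102 differed most from the other libraries, with chi-square values per degree of freedom of 77.2 to 113.7 and 44.9 to 92.7 against each of the others, and tumor 102 had the fewest counts. Tumor 102 was looked at after its values were seen. Of the 13139 genes tested, 25.7% had their highest CPM in tumor 102, against 11.2% to 18.7% in each of the other tumors.

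Among the 9 genes, Adipoq was scarce in most of the tumors, at or below 1.60 CPM in 5 of 6. In 1 older tumor, number 102, 8 of the 9 genes had their highest CPM of all 6 tumors. The remaining gene, Lep, was highest in older tumor 107. Of the 9 genes, Lpl alone had all older tumors above all younger ones. No gene of the group passed an adjusted p of 0.05 between older and younger tumors with edgeR, and Lpl alone passed with DESeq2 (adjusted p = 0.0493). A further list of 20 other adipocyte genes summed highest in younger tumor 158, at 1681 CPM, against 1492 CPM in tumor 102. Thrsp alone made up 1168 CPM of the sum in tumor 158 and 906 CPM of that in tumor 102, so these sums mainly report Thrsp. In bulk tissue, fewer adipocytes and less RNA per adipocyte cannot be told apart.

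**Figure D1:**
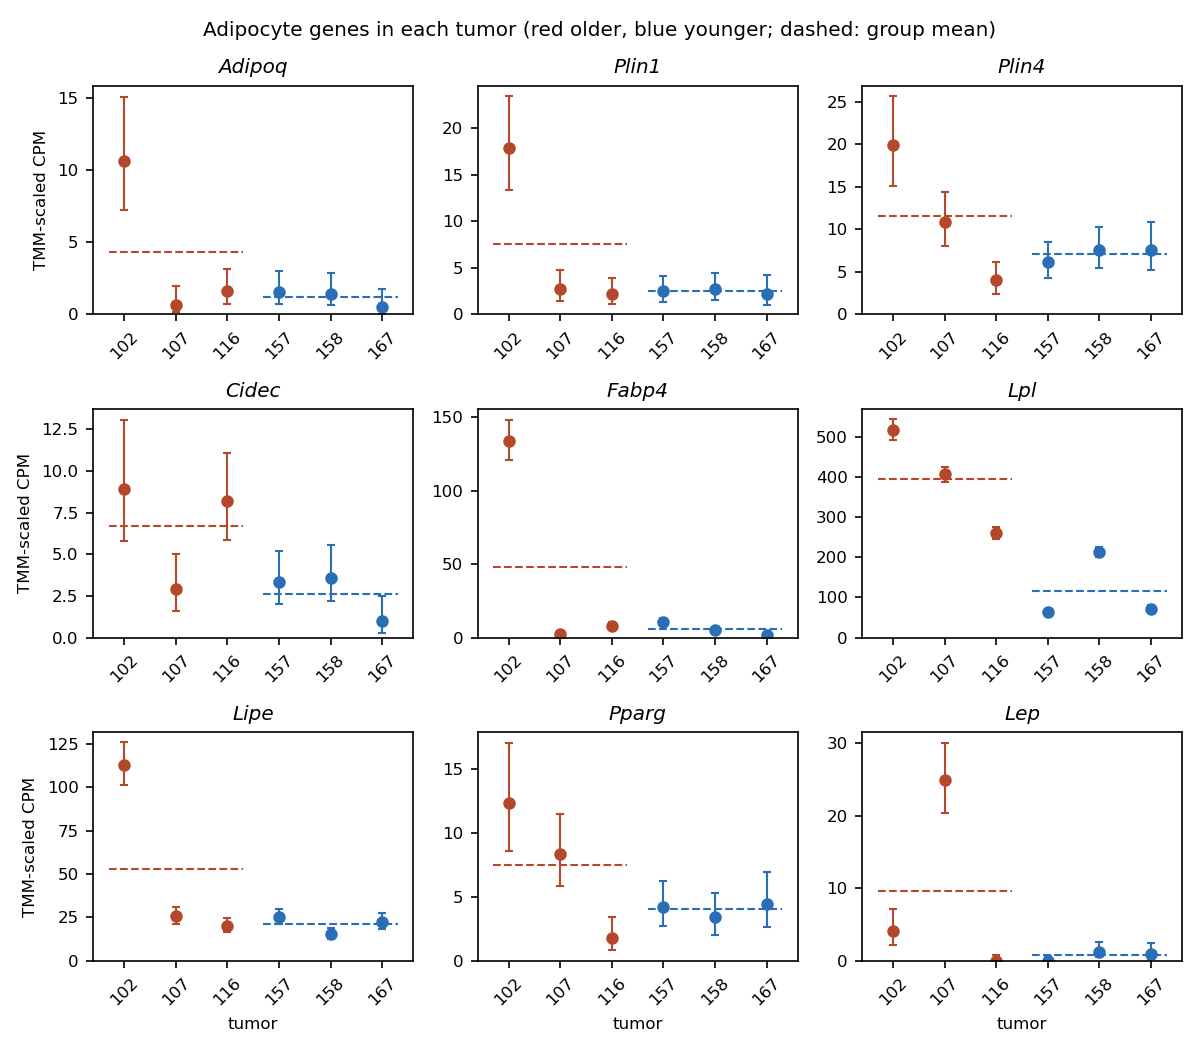
Each panel plots 1 gene, with TMM-scaled CPM on the vertical axis (linear, from 0) and the 6 tumors on the horizontal axis, older in red and younger in blue; bars are exact 95% Poisson intervals of the counts and dashed lines are group means (n = 3). Tumor 102 is the highest point in every panel but that of Lep, which peaks at 24.9 CPM in tumor 107, and Lpl is the panel in which the age groups do not overlap.

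The 2 adipocyte hormones peaked in different older tumors, and the promoter windows of both are shown to set them side by side, a choice made after their values were seen. The windows run from 250 bases before to 50 bases after the annotated start, are from RefSeq with build GRCr8, and lie at chr11:91240120-91240419 on the minus strand for Adipoq and at chr4:58626288-58626587 on the plus strand for Lep. Capitals mark matches, on either strand, to the CCAAT box (CCAAT), the TATA box (TATAA) and a palindrome bound by C/EBP factors (TTGCGCAA).
Adipoq: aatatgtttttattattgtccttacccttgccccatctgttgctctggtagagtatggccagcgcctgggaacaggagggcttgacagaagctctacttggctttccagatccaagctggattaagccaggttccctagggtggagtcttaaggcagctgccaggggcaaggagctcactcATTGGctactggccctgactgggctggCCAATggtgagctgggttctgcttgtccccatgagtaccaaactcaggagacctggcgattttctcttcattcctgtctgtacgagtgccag
Lep: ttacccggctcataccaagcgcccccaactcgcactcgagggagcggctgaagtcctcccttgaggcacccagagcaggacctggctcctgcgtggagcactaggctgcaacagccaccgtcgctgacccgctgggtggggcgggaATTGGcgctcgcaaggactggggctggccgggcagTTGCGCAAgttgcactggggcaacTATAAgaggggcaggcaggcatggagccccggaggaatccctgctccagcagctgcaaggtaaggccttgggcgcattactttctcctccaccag
The Adipoq window held 2 CCAAT boxes and neither of the other motifs, and the Lep window held 1 match to each of the 3. The matches do not overlap each other. Among 33469 rat promoter windows of the same length, 37.5% held a CCAAT box, 26.2% a TATA box and 0.17% the C/EBP palindrome. The PPAR response element of the DR1 type (AGGTCA repeated after 1 base, in 0.0538% of all windows) and the single AGGTCA that it contains (in 16.2%) were found in the windows of 0 of the 7 listed genes with an entry (Adipoq, Cd36, Cidec, Lep, Plin1, Plin4 and Pparg). A match describes letters in this window, not binding of a factor.

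Adipoq encodes adiponectin, a hormone made almost entirely by adipocytes. Tumor 102 had 31 Adipoq counts, or 10.6 CPM (95% interval 7.22 to 15.1). Older tumors 107 and 116 had 3 counts (0.679 CPM) and 8 counts (1.60 CPM). Younger tumors 157, 158 and 167 had 9 counts (1.58 CPM), 8 counts (1.44 CPM) and 2 counts (0.491 CPM). Tumor 102 thus stood at 7.37 times the median of the other 5 tumors, and the other older tumors lay close to the younger ones. Too few tumors had enough counts for Adipoq to pass the filter on low counts. Without that filter its log2 fold change, older against younger, was 1.73 (standard error, SE, 1.002 with an adjusted p = 0.749 in edgeR's quasi-likelihood test).

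Lep encodes leptin, the hormone that reports fat stores to the brain. Tumor 107 had 110 Lep counts, or 24.9 CPM (95% interval 20.5 to 30.0), and tumor 102 had 12 counts, or 4.11 CPM. No count was found in older tumor 116 or in younger tumor 157, where the floor of 3 counts is 0.598 and 0.528 CPM and the exact 95% interval reaches 0.735 and 0.649 CPM. Younger tumors 158 and 167 had 7 counts (1.26 CPM) and 4 counts (0.983 CPM). Lep therefore did not follow Adipoq, since the tumor with the highest Lep was among those with the least Adipoq. Lep did not pass the filter on low counts either, and without the filter its log2 fold change was 3.66 (SE 1.51, adjusted p = 0.560, edgeR). The mean in older tumors was 9.67 ± 13.3 CPM (SD, n = 3) and that in younger tumors 0.748 ± 0.662 CPM (SD, n = 3), so the spread among older tumors exceeded the difference.

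Of the 3 genes for lipid droplet proteins, Plin1 stood furthest above the median of the other 5 tumors in its highest tumor, at 7.23 times. Plin1 encodes perilipin 1, the coat protein of the adipocyte droplet that holds lipases back. It stood at 17.8 CPM in tumor 102 (52 counts, 95% interval 13.3 to 23.4), at 2.72 CPM in tumor 107 and at 2.19 CPM in tumor 116. Younger tumors 157, 158 and 167 had 2.46, 2.70 and 2.21 CPM. Apart from tumor 102, the 5 tumors therefore differed by less than the width of their counting intervals. The log2 fold change, older against younger, was 1.57 (SE 0.84, adjusted p = 0.710, edgeR) and -0.016 (SE 0.52) without tumor 102.

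Plin4, a further perilipin found on small droplets, was more evenly spread. Its CPM was 19.9, 10.9 and 3.99 in older tumors 102, 107 and 116 and 6.16, 7.57 and 7.62 in younger tumors 157, 158 and 167. Older tumors thus lay on both sides of the younger ones, with a log2 fold change of 0.69 (SE 0.57, adjusted p = 0.850, edgeR) that was 0.05 without tumor 102.

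Cidec, which encodes the protein that fuses droplets into a single large one, was high in 2 older tumors rather than 1. It stood at 8.91 CPM in tumor 102 (95% interval 5.82 to 13.1), at 8.17 CPM in tumor 116 (95% interval 5.87 to 11.1) and at 2.94 CPM in tumor 107. In younger tumors 157, 158 and 167 it was at 3.34, 3.60 and 0.983 CPM, so tumor 107 fell within the younger range. The log2 fold change was 1.30 (SE 0.64, adjusted p = 0.662, edgeR) and 1.04 (SE 0.72) without tumor 102.

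Fabp4 encodes the fatty acid carrier of adipocyte cytosol and had the largest ratio of highest to lowest tumor among the 7 adipocyte genes tested, at 90.9. It stood at 134 CPM in tumor 102 (391 counts), at 2.26 CPM in tumor 107 and at 7.98 CPM in tumor 116. In younger tumors 157, 158 and 167 it was at 10.6, 4.86 and 1.47 CPM. Tumor 102 lay 27.6 times above the median of the other 5 tumors, while tumors 107 and 116 lay within the younger range. The log2 fold change of 3.05 (SE 1.40, adjusted p = 0.620, edgeR) was -0.14 (SE 0.88) without tumor 102.

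Lpl encodes lipoprotein lipase, the secreted enzyme that frees fatty acids from circulating triglyceride. Its CPM was 517, 406 and 259 in older tumors 102, 107 and 116. In younger tumors 157, 158 and 167 it was 63.0, 213 and 72.0. All older tumors lay above all younger ones, which held in this direction for 1 of the 7 adipocyte genes tested and for 6.51% of all genes tested. The means were 394 ± 129 CPM in older tumors (SD, n = 3) and 116 ± 83.9 CPM in younger tumors (SD, n = 3), which gave a log2 fold change of 1.76 (SE 0.53, adjusted p = 0.368 and unadjusted p = 0.0108 in edgeR). Without tumor 102 the log2 fold change was 1.501 (SE 0.58, adjusted p = 0.625 with edgeR), so its size and sign remained while no call was made. With DESeq2's Wald test, Lpl passed narrowly (log2 fold change 1.76, SE 0.54, adjusted p = 0.0493), and DESeq2 called 1 of the 7 adipocyte genes beside 2.49% of all genes. An exact permutation test of a single gene with 3 tumors against 3 cannot give a two-sided p below 0.1.

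Lipe encodes hormone-sensitive lipase, which cleaves stored diglyceride. It stood at 113 CPM in tumor 102 (330 counts), at 26.0 CPM in tumor 107 and at 20.1 CPM in tumor 116. Younger tumors 157, 158 and 167 had 25.3, 15.5 and 22.6 CPM. The 5 tumors other than 102 therefore fell between 15.5 and 26.0 CPM, with older and younger tumors mixed. The log2 fold change was 1.32 (SE 0.65, adjusted p = 0.665, edgeR) and 0.12 (SE 0.32) without tumor 102.

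Pparg, the adipogenic receptor itself, had from 9 to 37 counts per tumor. It had 36 counts (12.3 CPM) in tumor 102, 37 counts (8.37 CPM) in tumor 107 and 9 counts (1.79 CPM) in tumor 116. In younger tumors 157, 158 and 167 it was at 4.22, 3.42 and 4.42 CPM. The older tumors thus held both the highest values and the lowest. The log2 fold change was 0.88 (SE 0.66, adjusted p = 0.827, edgeR), and 0.32 without tumor 102.

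Over the whole group, 7 of the 9 genes had enough counts to be tested, and 0 of these 7 passed an adjusted p of 0.05 between older and younger tumors, as did 0% of the 13139 genes tested (edgeR, Benjamini-Hochberg). At an unadjusted p under 0.05, 1 of the 7 genes, Lpl, was higher in older tumors, where 5.3% of all genes tested were. All 7 had a positive log2 fold change, as did 49.6% of all genes tested. Their median was 1.32, beside -0.0038 over all genes tested. Leaving out tumor 102 left 5 of the 7 positive (46.9% of all genes) and a median of 0.12. Among older tumors the median SD of log2 CPM was 1.33 over the 7 genes, beside 0.42 over all genes tested. Among younger tumors these medians were 0.36 and 0.37. The mean log2 CPM over the 9 genes was 4.89 in tumor 102, 3.30 in tumor 107 and 2.56 in tumor 116. It was 2.48, 2.71 and 2.14 in younger tumors 157, 158 and 167.

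**Figure D2:**
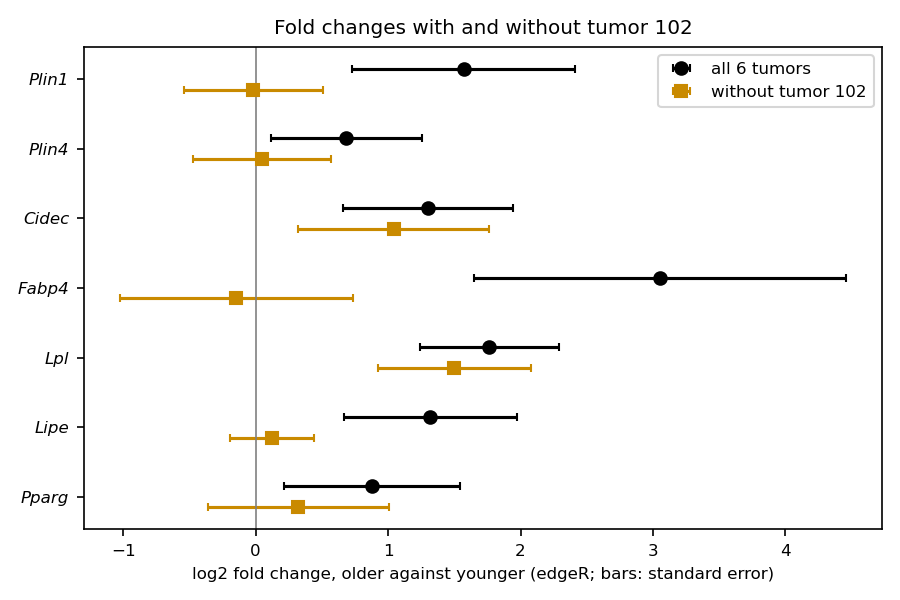
Points give the log2 fold change, older against younger, of the 7 adipocyte genes tested, with standard errors as bars, from all 6 tumors (black circles) and without tumor 102 (ochre squares). Fabp4, Plin1, Lipe and Plin4 move to between -0.14 and 0.12 without tumor 102, whereas Lpl stays at 1.501 and Cidec at 1.04. Pparg lies between these, moving from 0.88 to 0.32.

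The sum of Adipoq, Plin1, Plin4 and Cidec, a grouping made after their values were seen, was 57.2 CPM in tumor 102. In the other older tumors it was 17.2 (tumor 107) and 16.0 CPM (tumor 116), and in younger tumors it ranged from 11.3 to 15.3 CPM. Lpl made up 54.0% to 85.0% of all counts of the 9 genes in a tumor, so a sum over the whole group mainly reports Lpl.

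Other genes known from adipocytes were read in the same tumors. Of 20 listed genes, 12 were tested, 5 higher and 7 lower in older tumors by sign, with a median log2 fold change of -0.29 and 0 past an adjusted p of 0.05 (edgeR). Of the 12, 4 were highest in tumor 102 and 6 in younger tumor 158. Angptl4, a secreted inhibitor of lipoprotein lipase, stood at 346, 10.9 and 63.4 CPM in older tumors 102, 107 and 116 and at 22.0, 67.0 and 3.69 CPM in younger tumors 157, 158 and 167. Thrsp, a nuclear protein tied to fatty acid synthesis, was high in tumors of both ages, at 906 CPM in tumor 102 and 1168 CPM in tumor 158, and between 17.2 and 175 CPM in the others. Pnpla3, a lipid droplet hydrolase, had 26.1 CPM in tumor 158, 13.6 CPM in tumor 157 and at most 2.59 CPM elsewhere, with the smallest p of the list (log2 fold change -3.54, SE 1.37, adjusted p = 0.521, edgeR).

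Next come the partners of these genes in lipid storage and breakdown. Of the 15 listed lipid droplet and lipolysis genes, 12 were tested, of which 8 had a positive and 4 a negative log2 fold change and 0 passed. Pnpla2, the adipose triglyceride lipase that acts before Lipe, stood at 501 CPM in tumor 102 and between 55.5 and 140 CPM in the other 5 tumors. Plin3, a widely expressed perilipin, was the 1 gene of the list whose age groups did not overlap. All its older tumors lay below all younger ones, as in 733 of the 13139 genes tested. It had 42.6 ± 2.80 CPM in older and 54.4 ± 1.66 CPM in younger tumors (SD, n = 3 each, log2 fold change -0.35 with adjusted p = 0.758 in edgeR). Abhd5, the activator of Pnpla2, had instead 261 CPM in younger tumor 158 and 15.4 to 70.9 CPM elsewhere (log2 fold change -2.18, SE 0.83, adjusted p = 0.510, edgeR). Plin2, a perilipin of most cell types that also coats milk fat droplets, was at 2190 CPM in tumor 158, 1293 CPM in tumor 102 and 178 CPM in tumor 167. Of 11 genes of triglyceride synthesis, all tested, 4 had a positive and 7 a negative log2 fold change and 0 passed. Gpam, the first acyltransferase of that pathway, stood at 653 CPM in tumor 102 and 122.7 to 268 CPM in the others. Lpin1, a phosphatidate phosphatase, had 285 CPM in tumor 102 and 23.8 to 83.4 CPM in the others (log2 fold change 1.44, SE 0.69, adjusted p = 0.650, edgeR). Lpin2, its relative, was even, at 85.3 to 185 CPM.

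Among 18 partners of lipoprotein lipase in fatty acid uptake, all tested, 8 had a positive and 10 a negative log2 fold change and 0 passed with edgeR. DESeq2 called 3 of the 18 (2.49% of all genes), among them Fabp3, higher in older tumors, and Acsl3, lower. Fabp3, the fatty acid carrier of heart and of lactating mammary gland, was at 683, 184 and 69.0 CPM in older tumors 102, 107 and 116 and at 23.1, 53.7 and 6.14 CPM in younger tumors 157, 158 and 167. Like Lpl, it was higher in every older tumor (log2 fold change 3.49, SE 1.01, adjusted p = 0.359, edgeR). Of the 18 partners, Fabp3 was the 1 gene with all older tumors above all younger ones (6.51% of all genes). The reverse order held for 4 of the 18, beside 733 of the 13139 genes tested. Acsl1, a long-chain acyl-CoA synthetase, was at 826 CPM in tumor 102, 692 CPM in tumor 107 and 131 CPM in tumor 116, against 20.4 to 234 CPM in younger tumors. Acsl3, a relative of Acsl1, ran the other way, with 54.8 to 94.3 CPM in older and 117 to 217 CPM in younger tumors (log2 fold change -1.32, SE 0.33, adjusted p = 0.315, edgeR).

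PPARG works with other factors. Of 18 listed partners and adipogenic factors, 16 were tested, 10 of positive and 6 of negative sign, with a median log2 fold change of 0.09 and 0 past the threshold. Klf15, a factor of adipocytes and of fasting metabolism, stood at 48.0 CPM in tumor 102 and 0.983 to 3.87 CPM in the other 5 tumors (log2 fold change 2.81, SE 1.12, adjusted p = 0.533, edgeR). Srebf1, which drives lipid synthesis, was at 3273 CPM in tumor 158 and 275 CPM in tumor 167, both younger. Ncor1, a corepressor of nuclear receptors, had between 437 and 747 CPM, with the tumors in the same order as for Pparg. Of 7 receptors and adaptors for adiponectin, leptin and insulin, 5 were higher in older tumors and 0 passed with edgeR. Adipor1, a receptor for adiponectin, lay between 150 and 217 CPM in all 6 tumors. Irs2, an adaptor of the insulin receptor, was higher in every older tumor, at 447, 127 and 127 CPM in tumors 102, 107 and 116 and 49.0 to 76.9 CPM in younger ones (log2 fold change 1.92, SE 0.54, adjusted p = 0.342, edgeR). All older tumors lay above all younger ones for 2 of the 7, Irs2 among them (6.51% of all genes). DESeq2 called 1 of the 7, Irs2 (2.49% of all genes).

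**Figure D3:**
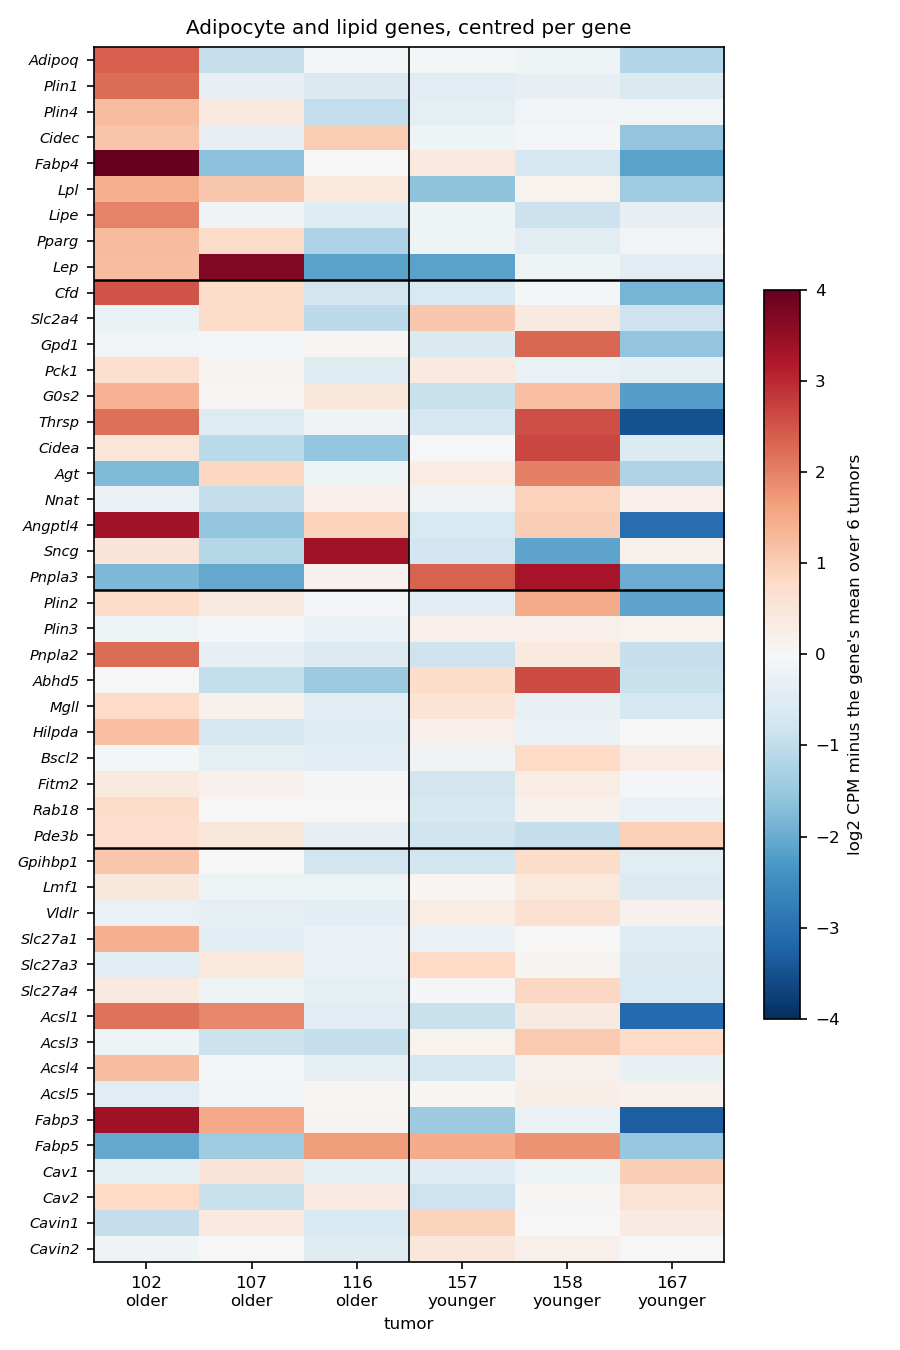
Rows are the 9 adipocyte genes, then tested genes from the lists of other adipocyte genes, of droplet and lipolysis partners and of uptake partners; columns are the 6 tumors, and colour gives log2 CPM minus the gene's mean over the tumors, with values beyond 4 shown at 4. The adipocyte block is red in tumor 102, where 8 of its 9 genes are highest, while Thrsp, Plin2 and Abhd5 are highest in younger tumor 158.

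Markers of other cell types were read in the same tumors, since several of these genes are also transcribed outside fat. The summed level of 11 fibroblast and adipocyte progenitor markers was 1224, 158 and 545 CPM in older tumors 102, 107 and 116 and 895, 878 and 135 CPM in younger tumors 157, 158 and 167, so tumor 102 was also highest here. Of the 10 tested, 7 had a positive and 3 a negative log2 fold change (median 0.51), 0 passed, and 4 were highest in tumor 102. Dcn, Pdgfra and Lum had positive values of 2.03, 1.79 and 1.32. The 3 of negative sign were Col1a1, Col3a1 and Cd34. Col1a1 and Col3a1, the main fibrillar collagens, made up most of the sum, with Col1a1 highest in younger tumor 157 (534 CPM) and Col3a1 in younger tumor 158 (350 CPM). Cd34 had 5.14 to 9.28 CPM in older and 9.34 to 17.5 CPM in younger tumors. For 11 endothelial markers the sums ran from 226 to 531 CPM in older and from 142 to 502 CPM in younger tumors, and 4 of 11 were highest in tumor 102. The most abundant were Flt1, a VEGF receptor, at 50.9 to 127 CPM, and Vwf, a clotting factor, at 20.4 to 119 CPM. Tek, the angiopoietin receptor, stood at 26.1 CPM in tumor 102 and 5.04 to 15.4 CPM in the others. For 12 macrophage markers they ran from 449 to 568 CPM in older and from 183 to 559 CPM in younger tumors. Of the 11 macrophage markers tested, 10 were higher in older tumors, 6 of them at an unadjusted p under 0.05 (8.59% of all genes in either direction), 0 passed the adjusted threshold, and Marco had 0 counts. Cd68 stood at 73.0, 81.9 and 34.7 CPM in older and 32.4, 21.1 and 20.6 CPM in younger tumors (log2 fold change 1.35, SE 0.38, adjusted p = 0.342, edgeR). Csf1r, the receptor that keeps macrophages alive, had 46.1 to 96.4 CPM in older and 20.9 to 36.4 CPM in younger tumors. Cd14, an endotoxin receptor, was highest in younger tumor 158 at 419 CPM. The part of these cells in the levels of Fabp4, Lpl and Pparg was not tested.

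Milk and secretory epithelium markers differed widely between tumors. Their 12 genes summed to 160673, 127715 and 40781 CPM in older tumors 102, 107 and 116 and to 27969, 178989 and 5978 CPM in younger tumors 157, 158 and 167. Csn2, a casein, was at 110874 CPM in tumor 102 and 593 CPM in tumor 167. Csn1s1, another casein, was highest in tumor 158 at 97389 CPM. Lpl had its higher values (213 to 517 CPM) in the 4 tumors with the highest sums, and 63.0 and 72.0 CPM in the others. The part of secretory epithelium in the Lpl level was not tested. The 7 epithelial markers with a row summed to 1407 to 1521 CPM in older and 1805 to 2042 CPM in younger tumors. All 7 were lower in older tumors by sign, as were 6616 of the 13139 genes tested, with 0 past the threshold. For 3 of the 7, Epcam among them, all older tumors lay below all younger ones, as in 733 of the 13139 genes tested. Cdh1 had 436 to 690 CPM in older and 566 to 844 CPM in younger tumors, and Epcam 299 to 349 and 397 to 496 CPM.

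**Figure D4:**
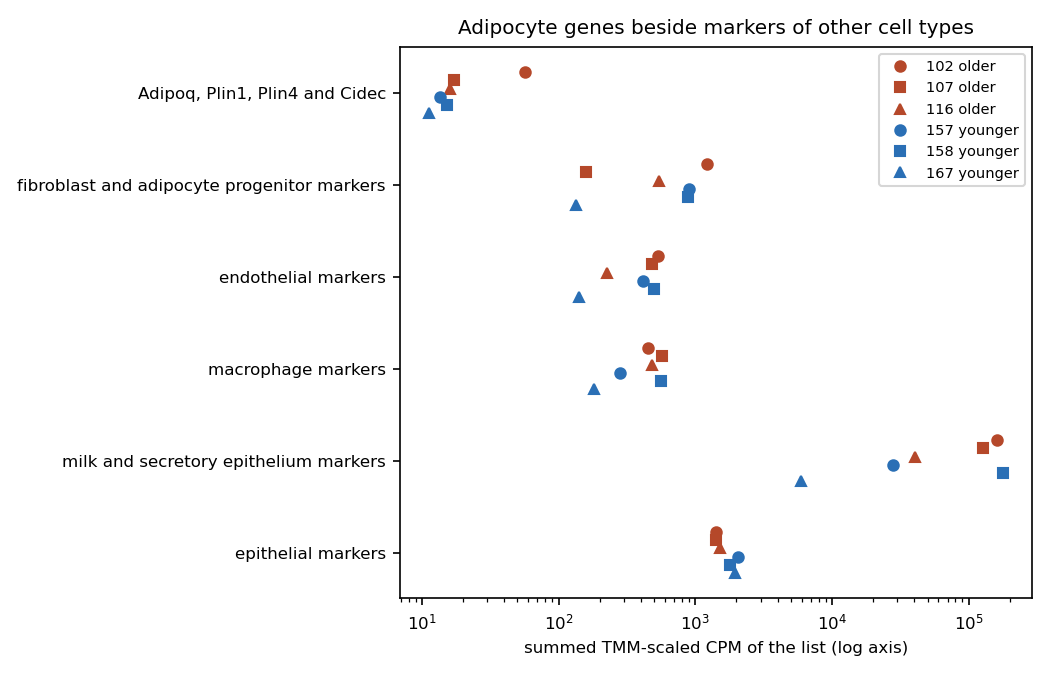
The horizontal axis (logarithmic) gives the summed CPM of each list and each point is a tumor, older in red and younger in blue. Adipoq, Plin1, Plin4 and Cidec, grouped after their values were seen, sum to 57.2 CPM in tumor 102 and to at most 17.2 CPM elsewhere. The sums of fibroblast and adipocyte progenitor markers (1224 CPM) and of endothelial markers (531 CPM) are also highest in tumor 102. The sums of endothelial and macrophage markers overlap between the age groups. The macrophage sum of younger tumor 158 holds 419 CPM of Cd14. Of the 11 macrophage markers tested, 5 had all older tumors above all younger ones (6.51% of all genes).

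Neighbouring tissues of the fat pad were looked for in the same way. Among brown fat markers, Ucp1, the uncoupling protein that defines brown fat, had 7 to 20 counts per tumor. Cox7a1, a mitochondrial gene also used by muscle, was at 159.9 to 298 CPM and Dio2 at 3.62 to 35.1 CPM. Cidea was highest in tumor 158 at 26.8 CPM and between 0.997 and 5.48 CPM elsewhere. Of the skeletal muscle markers, Acta1 was at 47.3 CPM in tumor 107 and 1.60 to 22.0 CPM in the other tumors. Tnni2 was also highest in tumor 107, at 7.47 CPM, as was Tnnt3, at 5.43 CPM. The 8 skeletal muscle markers summed to 73.5 CPM in tumor 107, the tumor with the highest Lep, and to 9.17 to 28.6 CPM in the others. The B cell markers Ms4a1 and Cd79b had 0 counts in all 6 tumors, Pax5 had at most 3.19 CPM, and the chemokine Cxcl13 had 22.3 CPM in tumor 102 and 1.23 to 10.7 CPM elsewhere. Hba-a1, a globin of red blood cells, was at 56.9, 134 and 57.2 CPM in older and 243, 192 and 115 CPM in younger tumors, and Hbb had 22.97 to 38.7 CPM in older and 48.7 to 79.6 CPM in younger tumors. The 4 blood markers with a row summed to 86.7 CPM in tumor 102, the lowest of the 6.

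Genes with values most like those of the adipocyte genes were looked for across the table. Across the 6 tumors, the genes whose centred log2 CPM was closest to the mean profile of Adipoq, Plin1 and Cidec were Dlc1, Fap, Pmm1, Mitf, Sik1, Grk3, Il1r1, Kif7, Flrt1 and Sema4b, with root mean square differences from 0.14 to 0.27 on the log2 scale. Dlc1, a GTPase-activating protein, stood at 128 CPM in tumor 102 and 18.9 to 35.9 CPM in the others. Fap, a surface protease of activated fibroblasts, stood at 20.9 CPM in tumor 102 and 2.46 to 5.22 CPM in the others. Sik1, a kinase induced by cyclic AMP, stood at 392 CPM in tumor 102 and 53.1 to 88.4 CPM in the others. None of the 10 is on the list of other adipocyte genes. At most 12 of those 20 could enter, since the search covered tested genes with a mean of at least 5 CPM. No conclusion is drawn from their absence.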

How the data were processed

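RNA-seq counts of 6 tumors, 3 older and 3 younger, were grouped by the tumor IDs and age classes in the labels. The authors depleted ribosomal RNA (the labels name polyA RNA), trimmed adapters, aligned reads with STAR, marked duplicates with Picard and counted reads per gene with HTSeq 0.13.5, and the counts were deposited without normalization. The submitters' processing notes name the build mRatBN7.2; the annotation, the strand setting and the handling of marked duplicates are not given in the sources used here, so reads of overlapping antisense genes cannot be told apart. Reads have 100 bases in the labels and 150 in the methods. The 4367 rows without a gene name, with 2.17% to 3.64% of counts per tumor, were left out of library sizes and tests, and 0 columns were unused.

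The deposited counts were tested using edgeR 4.0.16 in R 4.3.3 (filterByExpr by age group, TMM, quasi-likelihood test without covariates, Benjamini-Hochberg adjustment over 13139 genes, threshold 0.05). Standard errors were calculated back from the F statistic. DESeq2 1.42.0, the tool the study's methods name, and limma-voom 3.58.1 were alternatives. Log2 CPM used a prior count of 2. Depth ran from 3394451 to 6383983 counts per tumor, so 3 counts equal 0.528 to 1.03 CPM. The lowest chi-square per degree of freedom between any pair of libraries was 31.5, so no pair agreed within sampling noise. The statistics were tested on simulated data.

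The members, lists and tests were chosen with earlier results of these data known. All 9 genes found are named, and of each comparison list the gene with the smallest p and the 2 with the highest mean CPM, with Ucp1 added after its values were seen. The values of 1 list gene are not reported here. The likeness search covered named genes tested with a mean of at least 5 CPM. Promoter windows are from RefSeq (GRCr8), and no row was matched by coordinates. Of the listed genes, 9 had no row of their name.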

Additional observations from a re-analysis of the deposited data

How the results depend on the processing

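Leaving out tumor 102 moved the median of the 7 adipocyte genes tested further than any processing choice did. Without older replicate 102 the median log2 fold change was 0.12 against 1.32, and Plin1 (-0.016) and Fabp4 (-0.14) changed sign. Leaving out each tumor in turn, Plin1 ranged from -0.016 to 2.02, Fabp4 from -0.14 to 3.86, the median from 0.12 to 1.85 and the difference in mean log2 CPM over the 9 genes from 0.49 to 1.65 (1.14 with all tumors). DESeq2's Wald test moved the count of genes past the threshold from 0 to 326, with 1129 genes at an unadjusted p under 0.05 in edgeR. It brought the count of adipocyte genes to 1 (Lpl, adjusted p = 0.0493), of uptake partners to 3 and of receptors and adaptors to 1, and the cause was not tested. Every count was 0 with limma-voom and in the other edgeR fits: DESeq2's size factors, library totals, both other filters, without the 10 most abundant genes, with unnamed rows kept (chosen after seeing the data) and with each tumor left out. Across all alternatives the adjusted p of Lpl ranged from 0.0493 to 0.812 and its log2 fold change kept its sign, from 1.46 to 2.55. With limma-voom the median was 0.82, Fabp4 1.22, Plin1 0.73, Plin4 0.30, Pparg 0.38 and Lipe 0.82, all positive. Cidec was lowest without younger replicate 167 (0.92). With at least 10 counts in every tumor, Plin4, Lpl and Lipe were the adipocyte genes left to test. No paired analysis was possible because the age groups share no replicate numbers. At 3 counts per 0.528 to 1.03 CPM, depth limits Adipoq and Lep, which had at most 9 and 12 counts outside their highest tumor.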
